A study of Arabidopsis thaliana with 6 samples.

Results

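The genes described here are the photosynthesis genes that the chloroplast itself encodes. They are the psa genes of photosystem I, the psb genes of photosystem II, the pet genes of the cytochrome b6f complex, the ndh genes of the NDH complex, the atp genes of the ATP synthase, and rbcL, the large subunit of Rubisco. A gene was taken when a probe set was annotated to that plastid gene and to no other. This gave 43 genes with 1 probe set each, among 22746 probe sets that are not controls: 15 psb, 10 ndh, 6 pet, 6 atp and 5 psa genes, and rbcL. The plastid genome in RefSeq lists 44 such symbols. The missing one is ndhB, whose probe set is annotated to both of its copies in the inverted repeat.

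The study asked which genes of Arabidopsis respond to AGL24, a MADS-domain regulator known as a promoter of flowering. Whole 9-day-old seedlings were treated for 8 h, and 6 Affymetrix arrays were made, 2 from each of 3 groups. The first group was the line HY213 given a mock treatment, the second was HY213 given estradiol, and the third was wild type given estradiol. HY213 is taken here as the line that carries pER22-AGL24, in which estradiol switches AGL24 on through the chimeric activator XVE, so that wild type given estradiol controls for the chemical alone. The labels give the Columbia ecotype for 5 of the 6 samples and no ecotype for mock-treated HY213 replicate 1. The labels do not say how many independent transgenic lines were examined, and each replicate was a pool of seedlings.

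The photosystems capture light and drive electrons from water to ferredoxin, and the cytochrome b6f complex passes electrons between them. The ATP synthase uses the resulting proton gradient, and the NDH complex returns electrons to the plastoquinone pool in cyclic flow around photosystem I. Each complex is a mosaic of subunits from the plastid and the nuclear genome. Plastid genes are read in long transcription units by a bacterial-type polymerase and a phage-type one, the transcripts are then cut, edited and trimmed, and most of them lack the stable poly(A) tail of nuclear mRNAs.

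The induction was visible on the arrays: the AGL24 probe set read 106 and 401 in estradiol-treated HY213 against 4.98 and 4.87 in mock-treated HY213 and 5.05 and 4.60 in wild type. Median intensity lay between 6.95 and 7.27 on all 6 arrays. As a measure of background, the brightest Bacillus control probe set, for which no target was expected, read from 5.14 to 6.22. The photosynthetic tissue markers RCA and LHCB4.1 were bright, at 195 to 1036 and at 908 to 1286. Both were higher on each replicate 2 array than on the replicate 1 array of the same group. The root hair markers EXPA7 and EXPA18 read from 8.87 to 28.4 and were higher on each replicate 1 array than on the replicate 2 array of the same group. The embryo marker OLEO3 stayed between 5.2 and 6.4. Arrays with the same replicate number were more alike across groups (correlation over probe sets 0.986 to 0.993) than arrays of the same group (0.961 to 0.98).

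Most plastid photosynthesis probe sets gave a signal well over this background, as the plot of intensities by complex shows. Of the 43, 36 were above the brightest Bacillus control on all 6 arrays, 5 (atpI, petN, petG, psbT and ndhE) on some arrays, and 2 (petD and ndhF) on none. All 6 arrays read 100 or more for 18 genes, and all 6 read under 10 for 8 genes. The brightest probe sets of the complexes were those of atpB, the catalytic beta subunit of the ATP synthase, at 2110 to 3404, psaB at 436 to 2089, psbM at 599 to 1013, petB at 617 to 1242 and ndhI at 512 to 1334. The dimmest were those of psaC, psbT, petD, ndhF and atpI. The rbcL probe set was dim as well, from 12.1 in wild type to 24.9 in mock-treated HY213, both in replicate 1. Intensities of different probe sets depend on the probes, so they do not rank the transcripts.

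**Figure D1:**
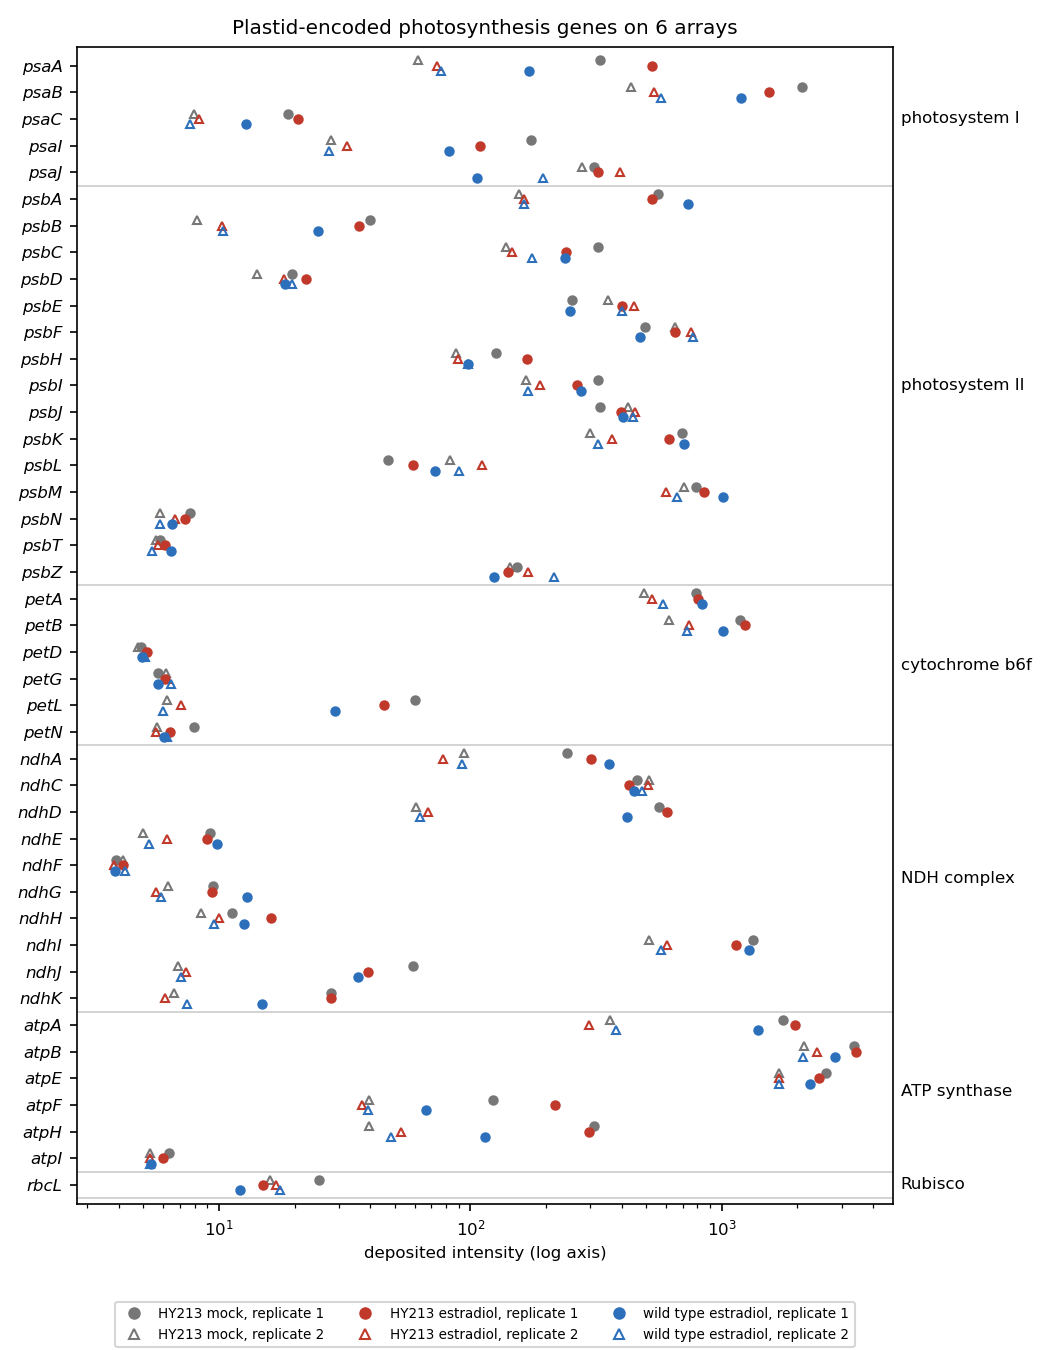
Deposited intensity (log axis) of each of the 43 plastid photosynthesis genes on each of the 6 arrays, grouped by complex, with colour for the group and symbol for the replicate. The widest gaps lie between replicate 1 and replicate 2, as for ndhD, atpA and psaA, and the bright atpB and atpE stay within a narrow range.

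The largest differences in these genes went with the replicate number. Relative to replicate 1, replicate 2 was lower for 25 of the 43 genes and higher for 1, psbL, by limma with Benjamini-Hochberg adjustment over all probe sets (adjusted p under 0.05). This test sets a difference against its scatter among the 3 groups. Its p-values do not measure how further replicates would vary. The background was 11.0% of all probe sets called, 4.57% as lower and 6.47% as higher in replicate 2. The median difference of the 43 genes was -0.47 on the log2(intensity + 16) scale, with a range of -2.76 to 0.56, against -0.01 over all probe sets. The median was -0.54 in mock-treated HY213, -0.50 in estradiol-treated HY213 and -0.40 in wild type. Among probe sets with a mean intensity of 20 or more, 20 of 29 members were called lower, against 7.72% of all such probe sets, and 1 higher, against 972 of 6065 such probe sets.

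These calls depend on how the spread is modelled: without the mean-variance trend in limma, 4 of the 43 were called (psbA, atpA, petA and ndhD) and 431 of all probe sets. Leaving out estradiol-treated HY213 replicate 2 left 17 of the 43 called. A count that needs no variance model points the same way, but it uses the same values and is not separate support. By it, 29 of the 43 were lower in replicate 2 in all 3 groups, against 28.0% of all probe sets. In all 3 groups 6 were higher, against 22.9%. The 29 include atpI, psbT, psbN and ndhE and the 6 include petG, which read under 10 on all 6 arrays. The intensity was at least 2-fold lower in replicate 2 in all 3 groups for 11 genes, against 0.339% of all probe sets, and the 11 were psbA, psbB, petL, psaA, psaB, psaI, atpA, atpH, ndhA, ndhD and ndhJ. The labels do not say what else separated the replicates, so the seedling pool and the array processing cannot be told apart. In such bulk samples, fewer cells of a type and less RNA per cell cannot be told apart either.

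**Figure D2:**
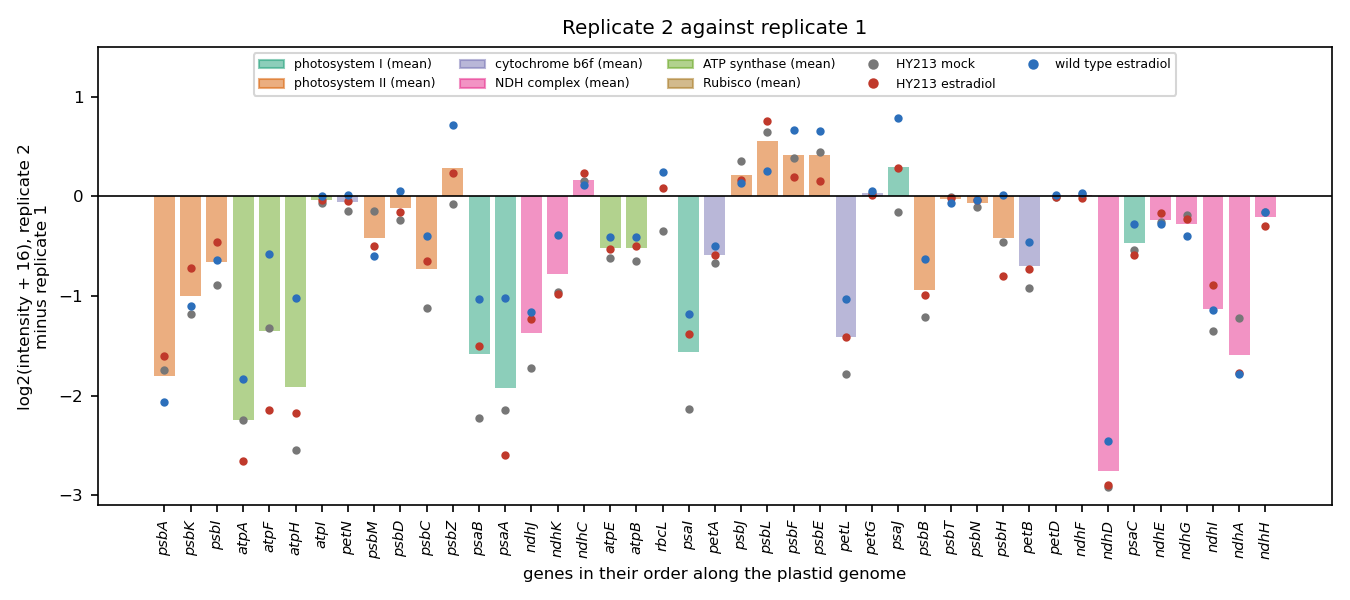
Difference between replicate 2 and replicate 1 on the log2(intensity + 16) scale for the 43 genes, in the order in which they follow each other on the plastid genome. Bars are means over the 3 groups, coloured by complex, and points are the single groups, so that a reader can see the deep bars of ndhD and atpA, all groups below 0, and the 4 adjacent bars of psbJ, psbL, psbF and psbE above 0.

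Photosystem II was divided. The psbA probe set, for the D1 reaction centre protein that is replaced continually in the light, read 559, 528 and 732 in replicate 1 and 156, 164 and 163 in replicate 2, for mock HY213, estradiol HY213 and wild type in that order. The replicates did not overlap, and the ratio of replicate 1 to replicate 2 was 3.58, 3.23 and 4.48 in the 3 groups (log2 difference -1.80 ± 0.14 SE, adjusted p = 0.00101). The core antenna genes psbB and psbC were lower too, by a log2 difference of -0.94 ± 0.11 and -0.73 ± 0.17. The small subunit genes psbK (adjusted p = 0.00434) and psbI (adjusted p = 0.0258) also passed limma's test. Against these, psbL read 46.9, 58.9 and 72.1 in replicate 1 and 82.9, 111 and 89.8 in replicate 2. It was the only member called higher (0.56 ± 0.14, adjusted p = 0.0395), and it was not called under quantile normalization or without the trend. It was also lost when either estradiol-treated HY213 array was left out. That is 1 check, since either omission removes the same replicate difference of that group. With an array left out in turn, the psbL difference lay between 0.46 and 0.71.

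The other members of the psbL transcription unit lay on the same side. The unit joins psbE and psbF, which encode the subunits of cytochrome b559, with psbL and psbJ, small subunits of photosystem II. All 4 were higher in replicate 2 in all 3 groups, with a median difference of 0.42. The psbE probe set read 254, 400 and 248 in replicate 1 and 353, 446 and 400 in replicate 2, so that the replicates overlapped. The difference was 0.42 ± 0.14 for psbE (adjusted p = 0.0982), 0.42 ± 0.12 for psbF (adjusted p = 0.0622) and 0.22 ± 0.12 for psbJ (adjusted p = 0.274). The direction held for all 4 genes under quantile and median normalization. A pseudocount of 1 or 64 could not change it, since each gene was higher in every group.

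In photosystem I, 4 of the 5 genes were lower in replicate 2, and psaJ was the exception. The psaA and psaB genes encode the pair of large proteins that bind the reaction centre chlorophylls. Their transcripts are made together, and psaA read 328, 526 and 171 in replicate 1 and 61.8, 73.7 and 76.2 in replicate 2 (-1.92 ± 0.27, adjusted p = 0.00547). The psaB probe set read 2089, 1544 and 1192 in replicate 1 and 436, 537 and 574 in replicate 2 (-1.58 ± 0.19, adjusted p = 0.00333). In both genes the replicates were fully separated, and wild type had the lowest replicate 1 value. The small subunit gene psaI differed by -1.56 ± 0.18, and psaC, for the protein that carries the terminal iron-sulphur clusters, by -0.47 ± 0.07. The psaJ probe set read 311, 321 and 106 in replicate 1 and 277, 395 and 195 in replicate 2 (0.30 ± 0.19, adjusted p = 0.325).

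In the ATP synthase, 5 of 6 genes passed the test, all lower in replicate 2. The atpA gene, for the alpha subunit of the catalytic head, read 1759, 1957 and 1394 in replicate 1 and 359, 297 and 380 in replicate 2 (-2.24 ± 0.15, adjusted p = 0.000792). Its upstream neighbours in the same unit were atpH, for the proton-carrying ring, at -1.91 ± 0.26, and atpF, for a stalk subunit, at -1.35 ± 0.25. The fourth gene of the unit, atpI, read between 5.31 and 6.33 on all arrays, at the level of the Bacillus controls. The atpB and atpE genes form another unit, for the beta and epsilon subunits of the head, and both differed by -0.52 ± 0.06. For atpB, intensities of 3356, 3404 and 2809 in replicate 1 stood against 2126, 2395 and 2110 in replicate 2, without overlap.

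The NDH complex held the largest difference of the 43 genes. The ndhD gene encodes a membrane subunit of the proton-pumping arm. Its probe set read 565, 607 and 418 in replicate 1 and 60.6, 67.6 and 63.2 in replicate 2, a ratio of 9.33, 8.98 and 6.60 (-2.76 ± 0.15, adjusted p = 0.000541). Its unit, ndhH, ndhA, ndhI, ndhG, ndhE, psaC and ndhD, was the only one of more than 2 measured genes in which every gene was called lower. That count rests on dim genes near the threshold: ndhH (adjusted p = 0.0476) was not called under median normalization, without the group term, without the trend or with a pseudocount of 64. Without estradiol-treated HY213 replicate 2, ndhH, ndhG and psaC were not called. The ndhH call was also lost when estradiol-treated HY213 replicate 1 or either wild-type array was left out. Leaving out either array of a group removes the same replicate difference, so such a pair is not 2 separate checks. Within the unit, ndhA differed by -1.59 ± 0.16 and ndhI by -1.13 ± 0.11. The ndhE, ndhG and ndhH probe sets were dim, at 4.97 to 16.1, and the added 16 compresses such differences.

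In some other units the genes lay on both sides of 0. In the unit of psbD, psbC and psbZ, psbC was called lower, as given above. There psbD differed by -0.12 ± 0.08 (limma's adjusted p = 0.363) and psbZ by 0.29 ± 0.18 (adjusted p = 0.312). In the unit of ndhC, ndhK and ndhJ, ndhJ read 59.4, 39.0 and 35.6 in replicate 1 and 6.87, 7.42 and 7.04 in replicate 2 (-1.37 ± 0.11, adjusted p = 0.00107). The ndhK gene also passed the test (-0.78 ± 0.11), while ndhC, a membrane-arm subunit, read 462, 427 and 447 in replicate 1 and 514, 509 and 482 in replicate 2 (0.17 ± 0.11, adjusted p = 0.371). In the unit of petL, petG and psaJ, petL differed by -1.41 ± 0.13 (adjusted p = 0.00143), and petG was at the level of the Bacillus controls.

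In the cytochrome b6f complex, petL, petB and petA were called lower in replicate 2. The petB gene, for cytochrome b6, read 1178, 1242 and 1007 in replicate 1 and 617, 742 and 728 in replicate 2 (-0.70 ± 0.11, adjusted p = 0.00793). The petA gene, for cytochrome f, differed by -0.59 ± 0.10 (adjusted p = 0.0117). For petD, petG and petN no difference could be measured at signals of 4.76 to 7.98. By complex, the median difference was -1.56 for photosystem I, -0.93 for the ATP synthase, -0.53 for the NDH complex, -0.32 for cytochrome b6f and -0.12 for photosystem II. The value for rbcL was 0.00, at a signal too dim for small differences.

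Other genes of the plastid genome had a smaller median difference over the 3 groups. Of the 26 other plastid-encoded genes measured, 9 were called lower and 4 higher in replicate 2, with a median of -0.13. In mock-treated HY213 alone their median was -0.43, near the -0.54 of the photosynthesis genes. In estradiol-treated HY213 and in wild type the photosynthesis genes had medians of -0.50 and -0.40, and the other plastid genes -0.12 and -0.06. Single genes among them were as low: 5 of the 26 were at least 2-fold lower in all 3 groups, among them rps4 (-2.69), ccsA (-2.29) and matK (-2.07), chosen here after their values were seen. Of 11 listed nuclear genes for photosynthesis proteins, 3 were called, all higher in replicate 2: RCA, PSAE-1 and PSB27, with a median of 0.25 over the 11. The difference between the lists was not tested. The plastid-encoded members of the complexes and the listed nuclear ones thus had medians of opposite sign between the same arrays.

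**Figure D3:**
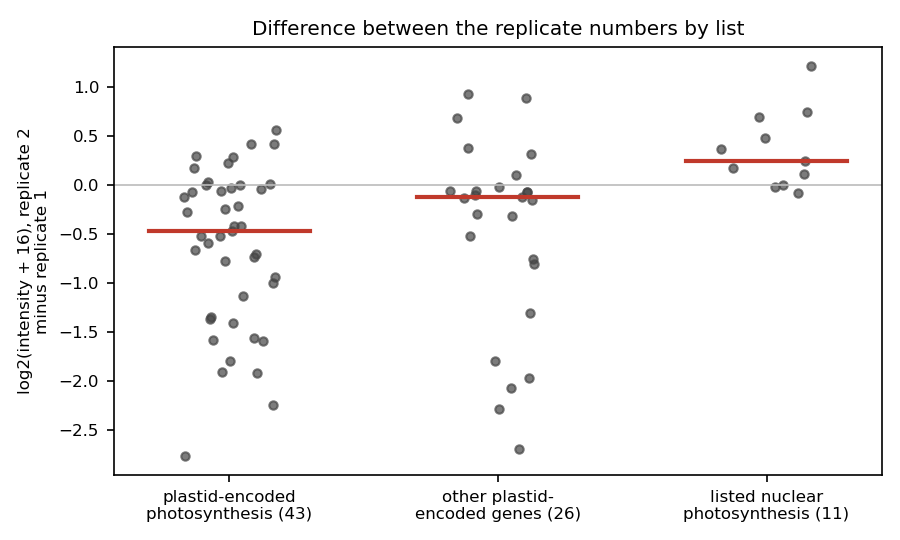
Difference between replicate 2 and replicate 1, averaged over the 3 groups, on the log2(intensity + 16) scale for each of the 43 plastid photosynthesis genes, 26 other plastid-encoded genes and 11 listed nuclear photosynthesis genes. Each point is a gene (spread sideways only to be visible) and each red line a list's median, at -0.47, -0.13 and 0.25.

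Several control readings moved with the replicate number. The 25S rRNA control read 1248, 1048 and 756 in replicate 1 and 1679, 1504 and 1689 in replicate 2, for mock HY213, estradiol HY213 and wild type. The ratio of the 5′ to the 3′ ubiquitin probe set was 1.21, 1.05 and 1.08 in replicate 1 and 1.54, 1.38 and 1.29 in replicate 2. The same ratio for actin was 0.258, 0.498 and 0.357 against 0.529, 0.538 and 0.485. For GAPDH the direction differed between the groups, at 2.04, 2.03 and 1.71 against 1.85, 1.97 and 1.75. It also differed for another GAPDH pair, at 0.282, 0.363 and 0.353 against 0.330, 0.304 and 0.314. On replicate 2 arrays, 69.0% to 72.7% of probe sets read above the brightest Bacillus control, against 58.2% to 60.5% on replicate 1 arrays. That control itself read 6.16, 5.99 and 6.22 in replicate 1 and 5.14, 5.31 and 5.28 in replicate 2. Median intensity was 7.27, 7.11 and 7.21 against 7.03, 7.04 and 6.95. The cutoff was thus lower in replicate 2, and these shares do not show that more probe sets gave a signal there. The part of these readings, and of the photosynthetic tissue and root hair markers given above, in the differences of the plastid genes was not tested.

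The spread among the 3 arrays of a replicate also differed. The ratio of the highest to the lowest of the 3 arrays was larger in replicate 1 than in replicate 2 for 35 of the 43 genes, against 63.0% of all probe sets. It was 1.5 or more for 15 genes in replicate 1, against 6.35% of all probe sets, and in replicate 2 for 1 gene, psaJ, against 6.66%. The median ratio of the members was 1.37 in replicate 1 and 1.17 in replicate 2, and over all probe sets 1.17 and 1.11. Wild type was the lowest of the 3 arrays for 28 of 43 genes in replicate 1 and for 8 of 43 in replicate 2, against 32.5% and 36.4% of all probe sets. Differences between the groups in these genes are therefore given for each replicate.

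The first comparison of the study set estradiol-treated against mock-treated HY213, to find genes that respond when AGL24 is switched on. No plastid photosynthesis gene passed limma's adjusted threshold, and neither did any other probe set (0%). That includes the AGL24 probe set, at 106 and 401 against 4.98 and 4.87. The adjusted test thus missed the induced gene itself, and a count of 0 does not show that a gene did not respond. At an unadjusted p under 0.05, 0 of the 43 were reached, against 1.20% of all probe sets. With the replicate number as a block the adjusted count was again 0, and 2 of the 43 (psbE and ndhH, both higher) had an unadjusted p under 0.05, against 4.23% in either direction and 2.40% as higher. The median difference was 0.02, with a range of -0.23 to 0.47.

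The largest value belonged to psbE. Its intensity was 254 and 353 in mock-treated and 400 and 446 in estradiol-treated HY213, a ratio of 1.57 in replicate 1 and 1.26 in replicate 2. The groups did not overlap, and the log2 difference was 0.47 ± 0.30 SE (unadjusted p = 0.161). With the replicate block the SE was 0.17 and the unadjusted p 0.0257 (adjusted p = 0.998). The 3 genes that share its transcription unit were also higher in both replicates: psbF by a ratio of 1.32 and 1.16, psbL by 1.25 and 1.33, and psbJ by a log2 difference of 0.28 and 0.09. In all, 17 of the 43 genes were higher in both replicates, against 25.6% of all probe sets, and 5 lower in both, against 24.2%. The 17 include petD, petG and psbT and the 5 include petN, all near the level of the Bacillus controls. None of these differences passed the adjusted test. Wild type given estradiol was also above mock-treated HY213 for psbL and psbJ, by a mean log2 difference of 0.29 and 0.17. The values for estradiol-treated HY213 were 0.30 and 0.18. Between estradiol-treated HY213 and wild type, psbL and psbJ each differed by 0.01. For psbF that difference was 0.44 in replicate 1 and -0.02 in replicate 2.

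The remaining values were small or uneven. The psaA gene was higher by 0.66 in replicate 1 and 0.21 in replicate 2 on the log2 scale, a mean of 0.43 that reflects mainly replicate 1. Of the genes that the naming rule takes from those lower in both replicates, petN differed by -0.05, ndhC by -0.06 and atpE by -0.05. The psaJ difference was 0.04 and 0.49, those of psbA were -0.08 and 0.06, and those of rbcL -0.40 and 0.04. The groups did not overlap for 4 genes, all higher with estradiol (psbF, psbE, psaJ and petD), against 12.8% of all probe sets. In the other direction it was 0, against 10.7%. The petD probe set was above the Bacillus controls on no array, so its separation measures no difference.

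The second comparison was between HY213 and wild type, both given estradiol, which differ in the transgene. Again no member and no other probe set (0%), AGL24 included, passed the adjusted threshold, with or without the block. The psaJ gene stood out among the members. It encodes a small hydrophobic subunit of photosystem I, and its probe set read 321 and 395 in estradiol-treated HY213 and 106 and 195 in wild type. HY213 was higher by a ratio of 3.02 in replicate 1 and 2.03 in replicate 2 (log2 difference 1.21 ± 0.32, limma's unadjusted p = 0.00747, not called after adjustment). It was the only one of the 43 with an unadjusted p under 0.05, against 0.774% of all probe sets.

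With the replicate block, psaJ had an SE of 0.23, an unadjusted p of 0.000686 and an adjusted p of 0.998. Its neighbours on the plastid genome differed less. The petL gene of the same unit was higher in estradiol-treated HY213 by a ratio of 1.56 in replicate 1 and 1.18 in replicate 2, at 45.3 and 7.09 against 29.0 and 6.02 in wild type. The rpl33 gene, for a ribosomal protein, read 265 and 273 in estradiol-treated HY213 and 281 and 269 in wild type, and petG was too dim to compare. The mock-treated HY213 arrays read 311 and 277 for psaJ, so that all 4 HY213 arrays were above both wild-type arrays. Nothing but the 1 psaJ probe set measures this gene here.

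Elsewhere the comparison with wild type differed between the replicates. In replicate 1, 9 of 43 genes were at least 1.5-fold higher in HY213, against 1.42% of all probe sets: atpF, atpH, psaA, psaC, psaJ, ndhK, psbE, psbH and petL. In replicate 2 only psaJ was, against 1.21%. The ratio of HY213 to wild type was 3.09 in replicate 1 and 0.968 in replicate 2 for psaA, and 3.28 and 0.945 for atpF. For atpH the log2 difference was 1.26 and 0.11. All 5 photosystem I genes and all 6 ATP synthase genes were higher by the mean of the replicates, against 11507 of 22746 probe sets. The 6 include atpI, which was at the level of the Bacillus controls. In replicate 2 alone the medians of these complexes were 0.04 and -0.00. The blocked fit gave 4 genes an unadjusted p under 0.05, all higher in HY213 (atpF, atpB, psbE and psaJ), against 3.63% of all probe sets in either direction and 1.88% as higher. Of these, atpB differed by 0.28 in replicate 1 and 0.18 in replicate 2.

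The psbE value was 0.66 and 0.15 (mean 0.40). Both HY213 arrays lay above both of wild type for psbE, psaJ and psbN, against 12.7% of all probe sets. They lay below for 0, against 10.5%. For psbE the nearest array of each group read 400, and psbN was dim, at 5.84 to 7.36 in these groups. In all, 12 genes were higher in both replicates, against 27.4%, and 4 lower in both (psbM, petA, ndhG and ndhA), against 25.4%. The psbM values were 853 and 599 against 1013 and 661 in wild type, and the ranges overlapped. The mean difference was -0.22 for ndhA and -0.10 for ndhG. For psbA the difference was -0.46 in replicate 1 and 0.00 in replicate 2, and for rbcL 0.14 and -0.02.

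**Figure D4:**
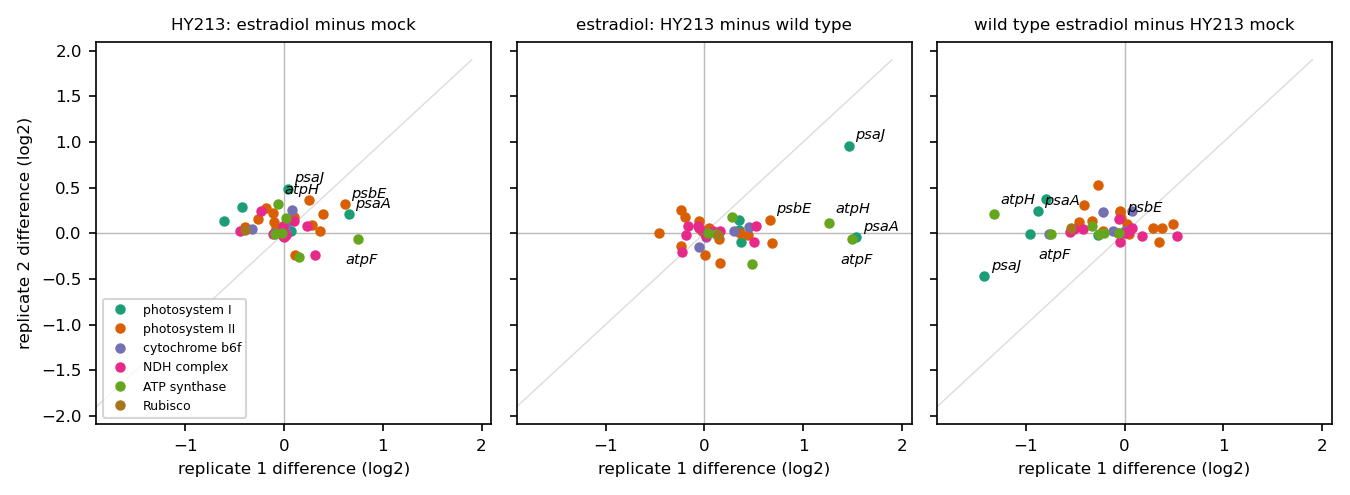
Log2(intensity + 16) difference in replicate 1 (horizontal) and replicate 2 (vertical) for the 43 genes in the 3 pairs of groups, coloured by complex, with equality as the diagonal. Most points lie along the horizontal axis, with differences in replicate 1 that are near 0 in replicate 2 (psaA, atpF and atpH against wild type), while psaJ keeps its side against wild type at 1.46 and 0.96.

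Wild type given estradiol was also set against mock-treated HY213, a pair that differs in both the line and the chemical. No probe set passed the adjusted threshold (0%), blocked or not. The psaJ gene was lower in wild type in both replicates, with mock-treated HY213 higher by a ratio of 2.93 and 1.42. The log2 difference was -0.95 ± 0.32 (limma's unadjusted p = 0.0221, with the block 0.00314, adjusted p with the block 0.850). It was the only member with an unadjusted p under 0.05 without the block, against 1.18% of all probe sets. With the block petL joined it, also lower, against 5.34% in either direction and 2.82% as lower. In replicate 1, 11 of 43 genes were at least 1.5-fold lower in wild type, against 1.92% of all probe sets, and in replicate 2 it was 0 of 43, against 2.44%. Of the 43, 8 were higher in both replicates (24.0% of all probe sets) and 8 lower in both (24.2%), with psbL and psbJ among the higher ones. Among the lower ones, psaI differed by -0.96 in replicate 1 and -0.01 in replicate 2, and petL by -0.77 and -0.01. For psbA the values were 0.38 and 0.06, and for rbcL -0.54 and 0.06.

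Across the 3 groups, both estradiol-treated HY213 arrays were above the other 4 arrays for 2 genes, psbE and psaJ, against 4.19% of all probe sets, and below them for 0, against 3.56%. For psbE this separation is below the printed digits, since estradiol-treated HY213 replicate 1 and wild-type replicate 2 both read 400. Both wild-type arrays were below the other 4 for psaJ alone, against 4.52%, and above them for 0, against 3.86%. The comparisons with mock and with wild type share the estradiol-treated HY213 arrays, so their values are not independent. For psbE the mean differences were 0.47 against mock and 0.40 against wild type. For psaJ they were 0.27 and 1.21, and wild type was apart from mock as well. The plot of both genes by array shows that psbE was higher in replicate 2 in every group, and that psaJ was low in wild type in both replicates.

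**Figure D5:**
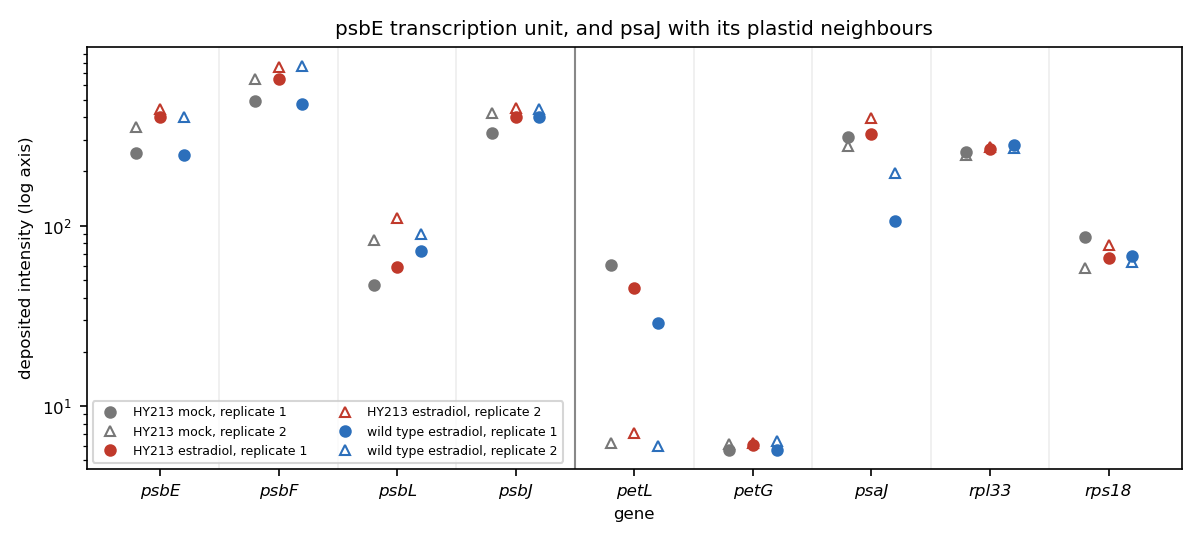
Deposited intensity (log axis) on the 6 arrays, by group (colour) and replicate number (symbol), of the 4 genes of the psbE unit and of psaJ with the genes next to it on the plastid genome, petL, petG, rpl33 and rps18. For psbE the estradiol-treated HY213 arrays, at 400 and 446, lie above the others of their replicate, and for psaJ the wild-type arrays, at 106 and 195, lie below the 4 HY213 arrays.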

How the data were processed

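Seedling RNA of 6 samples was measured on Affymetrix arrays, and titles gave each sample's group and replicate number. Intensity values, linear and positive, were deposited in 1 table of 22810 probe sets. Both MAS5 and RMA are named in the submitters' processing notes, and which of them gave these values is not known here. Gene symbols came from the platform annotation, updated through RefSeq (TAIR10.1). Of 22746 probe sets left after removing 64 controls, 13513 are annotated to 1 gene, 503 to several and 8730 to none, and 13436 were matched to RefSeq.

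Values were tested as log2(intensity + 16) with limma 3.58.1 in R 4.3.3 (lmFit, then eBayes with a mean-variance trend), with all 6 arrays in 3 groups and adjustment over all 22746 probe sets by the Benjamini-Hochberg method. Fold changes on this scale understate dim genes. The main fit has no replicate block. A blocked fit was run beside it, because replicate number was shared by the deviations of arrays from different groups (correlation 0.693, 0.665 and 0.822), although with 2 arrays a group these correlations rest on the same 3 differences between replicates. Replicate 2 against replicate 1 was the replicate term of a fit with group. The fits were also run on simulated data. For estradiol against mock, the unblocked fit called 78% of simulated log2 changes of 1 and 95% of changes of 2. Those changes were set equal on both arrays of a group, unlike AGL24 at 106 and 401. The simulated shares therefore do not carry over to the real arrays, where AGL24 was missed. Intensities have no counts behind them, so the precision rests on the 2 arrays a group. The design text calls the pools biologically independent, and p-values measure only the spread between these samples.

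The genes named are psaJ, rbcL and psbA in every comparison, the 3 largest and 3 smallest differences among genes changed the same way in both replicates (in all 3 groups for replicate 2 against 1), all genes past the threshold, and genes with both estradiol-treated HY213 arrays beyond the other 4. The brightest and dimmest gene of each complex were named for levels, and others beside these were chosen after their values were seen. The members and lists were chosen with earlier results of these data known. Alternatives were another normalization, pseudocount, filter, threshold, variance model, block or left-out array. Sequences and coordinates were not used here.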

Additional observations from a re-analysis of the deposited data

How the results depend on the processing

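In replicate 2 against replicate 1, the 26 called genes kept their direction under all 15 alternatives. Only quantile and median normalization could have changed it. The other alternatives keep the estimate, or keep the sign of each group's difference, which all 3 groups shared for these genes. Between 17 and 29 members were called when each array was left out in turn, and 4 without the trend. Of all probe sets, 431 were called without the trend, 4216 at an adjusted p of 0.1 and 637 to 4062 when an array was left out. The members' median was -0.60 with a pseudocount of 1 and -0.60 with none (an alternative chosen after seeing the data), -0.31 with a pseudocount of 64, and -0.57 to -0.41 with an array left out. The rbcL difference changed sign to 0.00693 under median normalization, 0.0172 with a pseudocount of 1 and 0.0218 with none, and lay between -0.13 and 0.17 with an array left out.

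With the replicate number as a block, no group comparison gave an adjusted call. The block cannot change a group difference, because each group has 1 array of each replicate number. The psaJ value of 1.21 against wild type was therefore bound to stay. Combined with no pseudocount, chosen after seeing the data, the block gave 1 probe set for estradiol against mock and 1 for estradiol-treated HY213 against wild type, and no member. Leaving out an array unbalances the replicate numbers between the groups, so replicate differences enter these values. It gave 0 to 13 called probe sets for estradiol against mock, 0 to 16 for HY213 against wild type and 0 for wild type against mock. The members' medians lay between -0.23 and 0.35, -0.18 and 0.32, and -0.41 and 0.20 in that order. Single genes changed sign in this way. For estradiol against mock, the ranges were -0.36 to 0.26 for atpE, -0.18 to 0.0611 for ndhC, -0.12 to 0.0213 for petN, -0.87 to 1.73 for psaA, -0.88 to 0.86 for psbA and -0.0759 to 0.68 for psbL. For HY213 against wild type they were -0.40 to 1.77 for atpH, -1.11 to 0.67 for ndhA, -0.30 to 0.0985 for ndhG, -1.26 to 0.80 for psbA, -0.49 to 0.11 for psbM and -0.0666 to 0.19 for rbcL. For wild type against mock they were -1.28 to 0.50 for petL, -1.55 to 0.58 for psaI, -0.81 to 1.25 for psbA, -0.00694 to 0.35 for psbJ and -0.0349 to 0.62 for psbL. The psaJ difference against wild type stayed between 0.82 and 1.61.

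A mean over the probe sets of a gene was not run, because every member has 1. For replicate 2 against 1, the planned fit without a block was run as a fit with no group term. Signal limits the dim genes: 13 members read under 25 on all 6 arrays, where the pseudocount compresses differences, and 4 of them (psaC, ndhE, ndhG and ndhH) were nonetheless called lower in replicate 2. The cause of these changes was not tested, apart from the unbalance that leaving out an array creates.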
